A study of Mus musculus with 3 samples.

Results

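Matricellular genes were examined in MC3T3-E1 cells, a mouse calvarial line of wild-type preosteoblasts, by RNA-seq. The genes were chosen by name from a larger group of matricellular proteins, with earlier results of these data known. They were Postn, Tgfbi, Tnc, Sparc, Sparcl1, Thbs1, Thbs2, Smoc1 and Smoc2. Other matricellular genes form a separate list below, so counts over the 9 describe these genes and not the whole group. All 9 were listed among the 15287 genes of the expression table. The study had 3 libraries, 1 for each condition. The CTL library came from cells with no particular treatment, the Ti library from cells given titanium (Ti) particles at 10 μg/cm² for 24 h, and in the Ti+Se-Met library 5 μM selenomethionine (Se-Met) was given along with that dose of particles, also for 24 h. The comparison of Ti with CTL addresses the effect of the particles on osteoblast genes, and the comparison of Ti+Se-Met with Ti addresses what Se-Met added to it. Each condition was sequenced once, so the spread between cultures is unknown and p-values were not computed. The labels give no number of cultures behind a library and no culture time for CTL.

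Matricellular proteins are secreted into the extracellular matrix, where they act mainly as signals and adaptors between matrix fibres and cells, and less as structural fibres themselves. They bind integrins, proteoglycans and growth factors, and they are typically abundant in developing, healing or mechanically loaded connective tissue. In bone, periostin (Postn) marks the periosteum, osteonectin (Sparc) is a major non-collagenous protein, and tenascin-C (Tnc) surrounds sites of new bone formation.

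Promoter windows are shown for Postn and Tnc, which were far below CTL in the Ti library, and for Tgfbi, the gene of the set with the highest log2(FPKM + 1) difference from CTL in the Ti+Se-Met library. RefSeq windows on GRCm38.p6 were found for 5 of the 9 genes (Postn, Tgfbi, Tnc, Sparc and Thbs2), and none was found for Sparcl1, Thbs1, Smoc1 and Smoc2. Each sequence below is the 250 bases before the annotated start, written 5′ to 3′ on the strand of the gene, with the match to TATAAA in capitals. RefSeq gives Postn and Tnc a second start each, and the window shown is that of the start nearest to GENCODE M21. The Postn window is chr3:54360857-54361106 on the plus strand, the Tnc window is chr4:64047016-64047265 on the minus strand, and the Tgfbi window is chr13:56609336-56609585 on the plus strand.
Postn: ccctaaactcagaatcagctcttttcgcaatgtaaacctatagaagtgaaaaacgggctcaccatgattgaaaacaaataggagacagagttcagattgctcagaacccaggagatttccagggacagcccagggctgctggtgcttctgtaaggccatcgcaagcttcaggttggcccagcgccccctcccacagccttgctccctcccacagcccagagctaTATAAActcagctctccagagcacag
Tnc: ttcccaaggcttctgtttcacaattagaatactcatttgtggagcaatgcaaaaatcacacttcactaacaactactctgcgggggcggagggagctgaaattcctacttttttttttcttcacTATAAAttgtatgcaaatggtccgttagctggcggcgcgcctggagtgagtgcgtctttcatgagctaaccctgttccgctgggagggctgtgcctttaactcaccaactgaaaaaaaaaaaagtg
Tgfbi: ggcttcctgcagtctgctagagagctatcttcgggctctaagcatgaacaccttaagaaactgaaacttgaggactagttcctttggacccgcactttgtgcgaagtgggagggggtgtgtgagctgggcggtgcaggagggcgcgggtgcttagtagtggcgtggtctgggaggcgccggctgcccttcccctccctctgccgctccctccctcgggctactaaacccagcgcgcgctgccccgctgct

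The TATAAA match began 26 bases before the annotated start in Postn and 126 bases before it in Tnc, and the Tgfbi window held none. On the gene's strand, 7.59% of 32851 RefSeq windows of this length held TATAAA. Searched on both strands, TGANTCA (the AP-1 motif), GGAATG (the TEAD motif), CACGTG (an E-box) and GTCTAGAC (the Smad palindrome) gave no match in the windows of the 5 genes. These letters occurred in 6.75%, 12.6%, 6.02% and 0.167% of all windows, respectively. The GC content was 52.0% in the Postn window, 44.8% in the Tnc window and 62.4% in the Tgfbi window, against a median of 52.4% over all windows. A match or its absence describes these letters in this window only.

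Expression was measured as FPKM, that is fragments divided by transcript length and by the size of the library, and was not scaled between libraries by any stated step. Differences below are on the log2(FPKM + 1) scale, which makes the difference of a low gene smaller, and a fold given as a number is the plain ratio of FPKM values. A gene is counted as higher or lower by 2-fold or more, or as past 2-fold, when its log2(FPKM + 1) difference is at least 1 in size, so that a gene with a plain ratio above 2 may not be counted, most of all at low levels. Depth was not given, so it was estimated from the spacing of low FPKM values in short transcripts, at about 14350000 (CTL), 14800000 (Ti) and 10050000 fragments (Ti+Se-Met). Depths of about 21000000 fitted the Ti+Se-Met library nearly as well as the lower value, which is used here and gives the wider intervals. The 95% intervals of a level or a fold rest on these fragments. Sampling of fragments is the only error they include, and they set libraries, not conditions, side by side. The 11137 genes at 1 FPKM or more in at least 1 library were taken as the background, and 7 of the 9 matricellular genes were among them, Smoc1 and Smoc2 being the other two. Summed FPKM was 448285 (CTL), 526017 (Ti) and 514568 (Ti+Se-Met). Rescaling each library to the same sum (TPM) moved the all-gene median from 0.08 to -0.14 in Ti relative to CTL and from 0.01 to -0.17 in Ti+Se-Met relative to CTL. Relative to these medians, the difference of Postn in Ti relative to CTL was -2.87 as deposited and -2.88 as TPM, and that of Thbs2 was 0.34 and 0.32.

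The labelled cell type was checked against marker lists. Of the preosteoblast list, Col1a1, Runx2 and Dlx5 were above 9 FPKM in every library, while Alpl was at 1.51 FPKM in CTL and at 0.2 in both libraries with particles, Sp7 and Bglap were below 1 FPKM throughout, Bglap2 was at 3.76, 1.51 and 2.98 FPKM and Ibsp was listed at 0 in CTL and Ti+Se-Met and at 0.04 FPKM in Ti. The summed preosteoblast list was at 1378.66 (CTL), 383.60 (Ti) and 519.79 FPKM (Ti+Se-Met), most of it Col1a1, which alone was at 1333.19, 354.2 and 481.63 FPKM. Of 7 macrophage markers, Ptprc, Adgre1 and Tyrobp were not listed, and the summed list was at 26.8, 15.2 and 13.1 FPKM, nearly all of it Lyz2. Summed adipocyte, endothelial and muscle lists stayed below 2 FPKM in every library, and the chondrocyte list was at 25.1, 36.5 and 40.0 FPKM, nearly all of it Sox9. The part of these lists in the results below was not tested.

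The matricellular genes spanned more than 4 orders of magnitude in CTL, and their order differed between the libraries. In CTL, the FPKM order was Postn, Sparc, Thbs2, Thbs1, Sparcl1, Tgfbi, Tnc, Smoc1 and Smoc2. The neighbours Tgfbi (10.24, interval 9.24 to 11.3) and Tnc (10.21, interval 9.59 to 10.9) were not separated beyond counting error, nor were Smoc1 and Smoc2. In Ti and in Ti+Se-Met, Sparc stood above Postn, and Tgfbi stood above Sparcl1. In Ti+Se-Met the intervals of Tgfbi (22.5 to 26.3) and Sparcl1 (21.1 to 24.8) overlapped. Tgfbi and Tnc, close in CTL, were apart in both libraries with particles. The Tgfbi level was 7.43 times the Tnc level in Ti and 4.41 times in Ti+Se-Met.

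**Figure D1:**
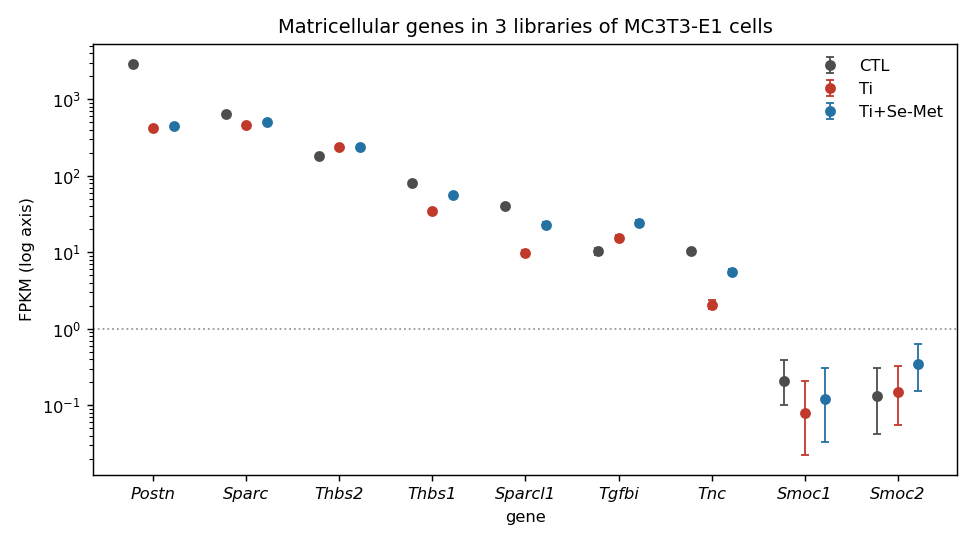
FPKM (log axis) of the 9 matricellular genes in the CTL, Ti and Ti+Se-Met libraries, 1 point per library. Bars are 95% Poisson intervals on estimated fragments (counting error only), and the dotted line marks 1 FPKM. Postn was at 2904 FPKM in CTL and at 420 in Ti, while Thbs2 and Tgfbi were higher in Ti than in CTL.

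Compared with CTL, the Ti library held less mRNA of periostin, hevin, tenascin-C and thrombospondin-1, each by 2-fold or more. Osteonectin was lower by less than 2-fold, and thrombospondin-2 and Tgfbi were higher by less than 2-fold. Of the 7 genes that passed the filter, 4 were lower and 0 were higher by 2-fold or more, beside 3.64% of all genes lower and 3.63% higher. The median difference of the 7 was -1.21, beside 0.08 over all 11137 genes, and it was -0.49 over all 9 genes with Smoc1 and Smoc2. As TPM, the same 4 genes were past 2-fold, and the all-gene split moved from 404 higher and 405 lower to 233 higher and 864 lower. With upper-quartile scaling it was 242 higher and 535 lower. In bulk RNA, fewer cells of a kind and less RNA per cell cannot be told apart.

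Postn encodes periostin, a secreted fasciclin-domain protein that binds type I collagen, fibronectin and tenascin-C. It was at 2904.07 (CTL), 419.52 (Ti) and 446.61 FPKM (Ti+Se-Met). The CTL library was thus far above both libraries with particles, which were close to each other. In CTL only 2 of the 15287 genes had a higher FPKM than Postn, which ranked 3rd, while in Ti it ranked 164th. The fold in Ti relative to CTL was 0.144 (interval 0.142 to 0.147), a difference of -2.79, and 4 of the 11137 genes had a lower one. In Ti+Se-Met relative to CTL the fold was 0.154 (interval 0.151 to 0.157), and 5 genes had a lower difference. Between Ti+Se-Met and Ti the fold was 1.06 (interval 1.04 to 1.09). Postn was therefore at 14.4% of its CTL level in Ti and at 15.4% in Ti+Se-Met. Its 6 listed transcripts share 1 value per gene, so the splice forms of periostin could not be compared.

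Tgfbi encodes a fasciclin-domain relative of periostin that is induced by TGF-β and binds collagens and integrins. Its level was 10.24 (CTL), 15.24 (Ti) and 24.35 FPKM (Ti+Se-Met). The Ti library lay between the other two. The fold relative to CTL was 1.49 in Ti (interval 1.30 to 1.70) and 2.38 in Ti+Se-Met (interval 2.09 to 2.71), and it was 1.60 in Ti+Se-Met relative to Ti (interval 1.42 to 1.79). The difference of Tgfbi in Ti relative to CTL was 0.53 as deposited and 0.33 as TPM. Of the 9 genes, Tgfbi and Smoc2 had a plain ratio to CTL above 2 in Ti+Se-Met, and only the interval of Tgfbi left out equal levels. The FPKM of Postn was 284 times that of Tgfbi in CTL, 27.5 times in Ti and 18.3 times in Ti+Se-Met.

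Tnc encodes tenascin-C, a large oligomeric glycoprotein of developing and healing tissue that modulates the adhesion of cells to fibronectin. It was at 10.21 (CTL), 2.05 (Ti) and 5.52 FPKM (Ti+Se-Met). Ti was the lowest library, and Ti+Se-Met lay between Ti and CTL. The fold in Ti relative to CTL was 0.201 (interval 0.172 to 0.233), and that in Ti+Se-Met relative to Ti was 2.69 (interval 2.27 to 3.20). Tnc stood at 20.1% of its CTL level in Ti and at 54.1% in Ti+Se-Met. The difference in Ti+Se-Met relative to CTL was -0.78 as deposited and -1.02 as TPM, which passes 2-fold.

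Sparc and Sparcl1 encode related calcium-binding proteins, osteonectin and hevin, which bind collagen and counter cell spreading. Sparc was at 649.22 (CTL), 461.86 (Ti) and 507.94 FPKM (Ti+Se-Met). Its libraries with particles were both lower than CTL, with folds of 0.711 (interval 0.696 to 0.727) and 0.782 (interval 0.764 to 0.801). The difference of Sparc in Ti relative to CTL was -0.49 as deposited and -0.72 as TPM. Sparcl1 was at 39.81 (CTL), 9.78 (Ti) and 22.88 FPKM (Ti+Se-Met). Its order of libraries was the same as that of Tnc. The fold of Sparcl1 was 0.246 in Ti relative to CTL (interval 0.219 to 0.276) and 2.34 in Ti+Se-Met relative to Ti (interval 2.05 to 2.67), so that it stood at 24.6% and then at 57.5% of its CTL level. The FPKM of Sparc was 16.3 times that of Sparcl1 in CTL, 47.2 times in Ti and 22.2 times in Ti+Se-Met.

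Thbs1 and Thbs2 encode thrombospondin-1 and thrombospondin-2, trimeric glycoproteins that restrain angiogenesis. Thrombospondin-1 also activates latent TGF-β, and thrombospondin-2 takes part in the clearance of matrix metalloproteinases. Thbs1 was at 79.98 (CTL), 34.11 (Ti) and 55.79 FPKM (Ti+Se-Met), and Ti was the lowest library. Its fold was 0.426 in Ti relative to CTL (interval 0.408 to 0.446) and 1.64 in Ti+Se-Met relative to Ti (interval 1.55 to 1.72). Thbs2 was at 179.55 (CTL), 239.6 (Ti) and 237.78 FPKM (Ti+Se-Met). Both libraries with particles were above CTL in Thbs2, by a fold of 1.33 in Ti (interval 1.31 to 1.36), and did not differ from each other beyond counting error (fold 0.992, interval 0.971 to 1.01). The size of this rise depended on scaling. The difference of Thbs2 in Ti relative to CTL was 0.41 as deposited and 0.19 as TPM. The ratio of Thbs2 to Thbs1 in FPKM was 2.24 (CTL), 7.02 (Ti) and 4.26 (Ti+Se-Met).

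Smoc1 and Smoc2 encode modular calcium-binding proteins related to osteonectin, of which SMOC1 is known as an antagonist of BMP signaling. Both were near the limit of detection. Smoc1 was at 0.21 (CTL), 0.08 (Ti) and 0.12 FPKM (Ti+Se-Met), which amount to about 10, 4 and 4 fragments. Smoc2 was at 0.13, 0.15 and 0.35 FPKM, or about 5, 6 and 9 fragments. For Smoc1, no difference between libraries was detectable at this depth, with an interval of the fold in Ti relative to CTL of 0.0888 to 1.34. The interval for Smoc2 in Ti+Se-Met relative to CTL was 0.774 to 9.76, which also included equal levels.

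**Figure D2:**
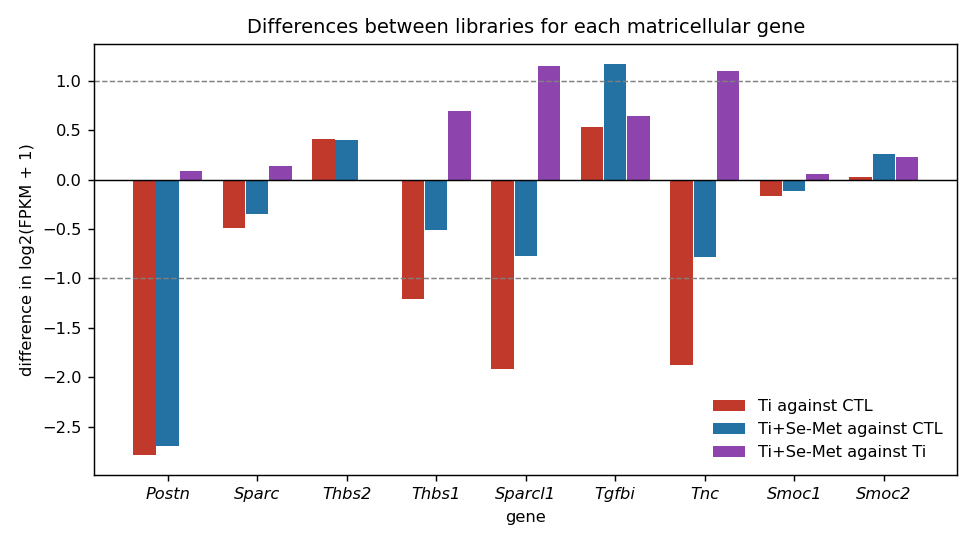
Difference in log2(FPKM + 1) for each of the 9 genes in Ti relative to CTL, Ti+Se-Met relative to CTL and Ti+Se-Met relative to Ti (vertical axis), with dashed lines at a 2-fold difference. Bars start at 0. Postn reached -2.79 and -2.70 relative to CTL but 0.09 between Ti+Se-Met and Ti, whereas Tnc and Sparcl1 reached 1.10 and 1.15 there.

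Postn dominated the set in CTL only, and most of the gap in summed level between CTL and the libraries with particles was in Postn. The 9 genes together made up 3873 (CTL), 1182 (Ti) and 1301 FPKM (Ti+Se-Met), or 0.864%, 0.225% and 0.253% of the summed FPKM of each library. Postn alone was 75.0% (CTL), 35.5% (Ti) and 34.3% (Ti+Se-Met) of the sum of the 9. Without Postn, the other genes summed to 969 (CTL), 763 (Ti) and 855 FPKM (Ti+Se-Met). Sparc held the largest share in both libraries with particles, at 39.1% in Ti and 39.0% in Ti+Se-Met.

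**Figure D3:**
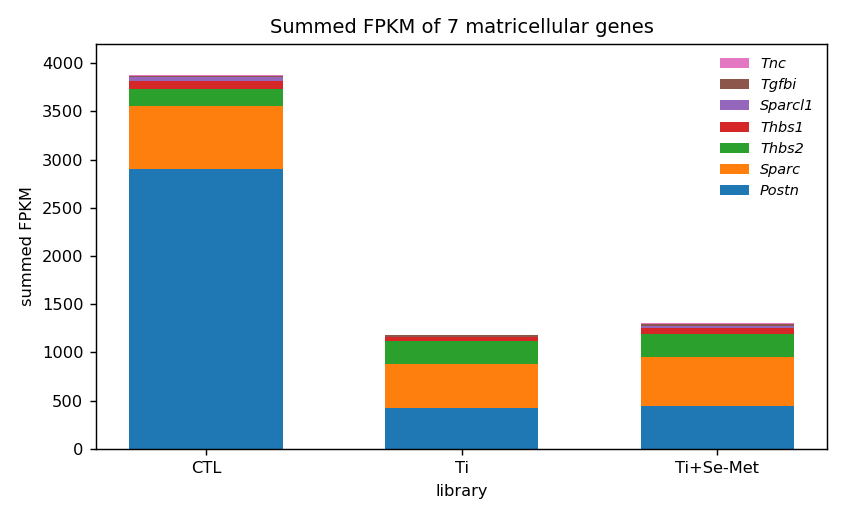
Summed FPKM (vertical axis) of the 7 matricellular genes at 1 FPKM or more, stacked by gene, for each of the 3 libraries. The stack reached 3873 FPKM in CTL and 1182 in Ti, and most of the gap was in Postn, whereas Thbs2 was thicker in Ti than in CTL.

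With Se-Met added to the particles, the matricellular genes parted into those whose level was well above that in Ti and those whose level stayed close to it. Tnc and Sparcl1 were higher in Ti+Se-Met than in Ti by more than 2-fold, and Thbs1 and Tgfbi by less than 2-fold. As deposited, Sparc, Postn and Thbs2 stayed within 1.10-fold of Ti, with differences of 0.14, 0.09 and -0.01. With upper-quartile scaling these differences were 0.21, 0.16 and 0.06. Of the 7 genes, 2 were higher and 0 were lower by 2-fold or more, beside 0.162% of all genes higher and 0.0629% lower. Only 8 of the 11137 genes had a larger difference than Sparcl1 (1.15), and 10 had a larger one than Tnc (1.10). For Thbs1 and Tgfbi these numbers were 52 and 70 genes, and for Postn 2682 genes. The median difference of the 7 was 0.64, beside -0.06 over all genes, and it was 0.23 over all 9 genes. With a pseudocount of 5 in place of 1, neither Tnc (0.58) nor Sparcl1 (0.92) was past 2-fold. As deposited, the interval of the fold of Postn (1.04 to 1.09) did not overlap those of Tnc (2.27 to 3.20) and Sparcl1 (2.05 to 2.67). Tnc and Sparcl1 had the largest differences of the 7, so this gap follows in part from how they were picked. The intervals hold counting error only, and no such comparison was made over all genes.

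Against CTL, the Ti+Se-Met library had 1 of the 7 genes lower (Postn) and 1 higher (Tgfbi) by 2-fold or more, beside 3.32% of all genes lower and 2.64% higher. As TPM, Tnc was also past 2-fold, and the all-gene split moved from 294 higher and 370 lower to 224 higher and 819 lower. The median difference of the 7 was -0.51, beside 0.01 over all genes. With a pseudocount of 5, Tgfbi was no longer past 2-fold (0.95). Thbs1 stood at 69.8% of its CTL level in Ti+Se-Met and at 42.6% in Ti, and Sparc at 78.2% and 71.1%. The comparisons share the CTL or the Ti library, so their values are set side by side and were not correlated.

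**Figure D4:**
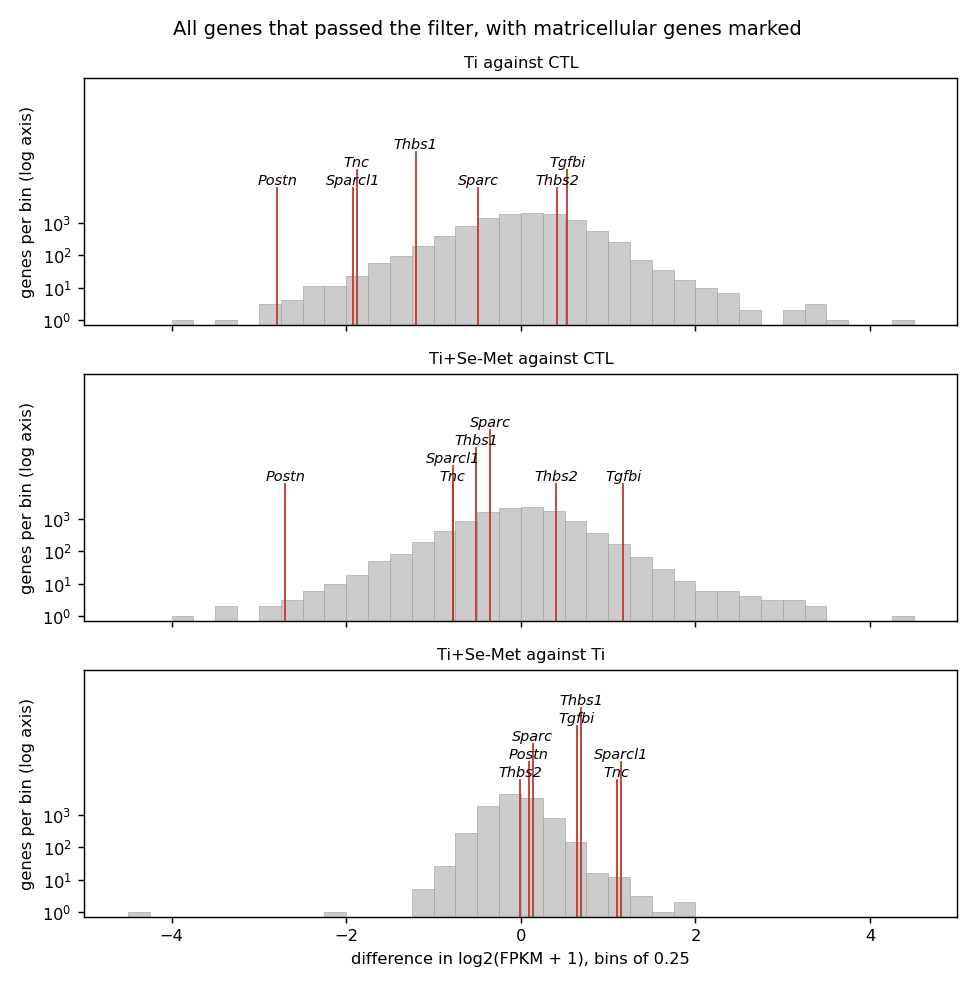
Number of genes per bin (log axis) against the difference in log2(FPKM + 1), over the 11137 genes at 1 FPKM or more in at least 1 library, for the 3 comparisons. Red lines mark the 7 matricellular genes that passed this filter, at heights chosen for legibility. Postn lies in the lower tail of both comparisons with CTL, and Tnc and Sparcl1 lie in the upper tail of Ti+Se-Met relative to Ti.

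The closest patterns were sought among the 8729 genes with a mean of at least 5 FPKM, by the distance in the pair of differences Ti relative to CTL and Ti+Se-Met relative to Ti, over 3 libraries. Tnc and Sparcl1 were each other's nearest gene, at a distance of 0.067. This closeness depended on the pseudocount of 1. With a pseudocount of 0.1 the pair of differences was -2.26 and 1.39 for Tnc and -2.01 and 1.22 for Sparcl1. With a pseudocount of 5 it was -1.11 and 0.58 for Tnc and -1.60 and 0.92 for Sparcl1. The search was not repeated at these settings. The next nearest to Tnc was Ptn, which encodes the secreted growth factor pleiotrophin, at a distance of 0.40 and with levels of 428.56 (CTL), 129.7 (Ti) and 216.04 FPKM (Ti+Se-Met). It was followed by Mylk, Clec11a and Spon2 at distances of 0.53 to 0.57, and the same 4 genes came next for Sparcl1. The genes nearest to Postn were Enpep, Abi3bp, Npnt, Apod and Omd, at distances of 0.19 to 0.41. Abi3bp, a gene of an extracellular matrix protein, was at 165.59, 26.85 and 32.09 FPKM, and Npnt, which encodes the integrin ligand nephronectin, was at 18.51, 2.23 and 2.98 FPKM.

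Other matricellular genes differed from CTL in both directions. Of the 21 genes in this list, 14 passed the filter, and 3 were higher and 3 lower by 2-fold or more in Ti relative to CTL, with a median difference of -0.49. The all-gene shares were 3.63% higher and 3.64% lower. In Ti+Se-Met relative to CTL, 4 were higher and 1 was lower, beside 2.64% and 3.32% of all genes. Between Ti+Se-Met and Ti none was past 2-fold, with a median of 0.18. The largest difference there was that of Tnn, another tenascin gene, at 2.84 (CTL), 2.23 (Ti) and 5.06 FPKM (Ti+Se-Met). Its plain ratio between Ti+Se-Met and Ti was 2.27 (interval 1.88 to 2.74). Its difference was 0.91, and 19 genes had a larger one. Ccn3, a CCN-family gene known from skeletal progenitors, was at 1164.18 (CTL), 335.5 (Ti) and 306.34 FPKM (Ti+Se-Met). Spp1, which encodes osteopontin, was at 1261.19, 3705.78 and 4659.49 FPKM. It became the most abundant gene of either matricellular list in both libraries with particles.

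Among the other CCN genes, Ccn5 was at 96.19 (CTL), 295.09 (Ti) and 228.1 FPKM (Ti+Se-Met), opposite in direction to Ccn3. Ccn1, whose product binds integrins, was at 237.78, 98.84 and 173.27 FPKM, with Ti the lowest library as in Thbs1. Ccn2, the connective tissue growth factor gene, was low at 0.83, 1.9 and 3.31 FPKM, and its fold in Ti+Se-Met relative to CTL had an interval of 2.52 to 6.41. Spon2, the gene of the matrix protein spondin-2, was at 54.05, 18.56 and 30.32 FPKM. The level in Ti+Se-Met lay between those of the other libraries for Ccn1, Spon2 and Ccn5, above both for Spp1 and Ccn2, and below both for Ccn3.

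**Figure D5:**
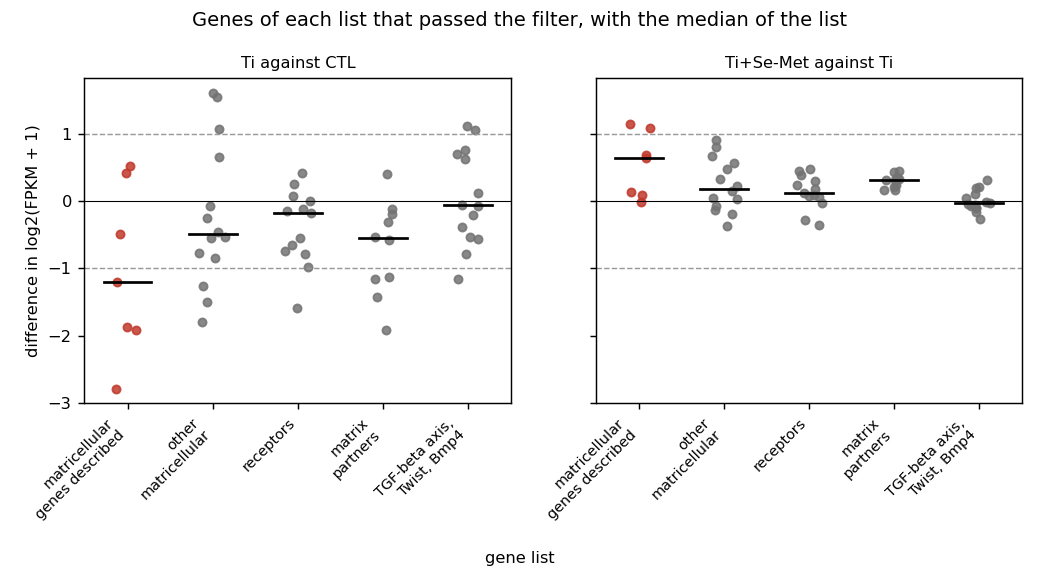
Difference in log2(FPKM + 1) (vertical axis) in Ti relative to CTL and in Ti+Se-Met relative to Ti for the genes of 5 lists that passed the filter, with a black line at each median and dashed lines at a 2-fold difference. Points are spread sideways for legibility. The median of the described genes was -1.21 in Ti relative to CTL and 0.64 in Ti+Se-Met relative to Ti, and those of the other lists lay between -0.55 and -0.06 and between -0.03 and 0.32.

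Of 17 genes for receptors of these proteins, 13 passed the filter and 1 was past 2-fold in Ti relative to CTL, beside 809 of 11137 genes. That gene was Itga8, the α8 integrin chain that pairs with β1. It was at 3.58 (CTL), 0.52 (Ti) and 0.49 FPKM (Ti+Se-Met). The most abundant in CTL were Calr, the calreticulin through which thrombospondins signal at the cell surface, at 429.33, 273.35 and 373.05 FPKM, and Lrp1, its co-receptor, at 403.55, 365.46 and 431.95 FPKM. The median difference of the list was -0.17 in Ti relative to CTL and 0.13 in Ti+Se-Met relative to Ti.

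Of 11 genes for matrix partners and processing enzymes, 10 passed the filter and 4 were lower by 2-fold or more in Ti relative to CTL: Col1a1, Col1a2, Col3a1 and Fbn1. The all-gene share lower by this much was 3.64%. Col1a1, which encodes a chain of type I collagen, was at 1333.19 (CTL), 354.2 (Ti) and 481.63 FPKM (Ti+Se-Met). Col1a2, the gene of its partner chain, was at 2688.49, 998.91 and 1256.6 FPKM. Fn1, which encodes fibronectin, was at 1400.47, 1296.64 and 1755.64 FPKM, and so was highest in Ti+Se-Met. The median of this list was -0.55 in Ti relative to CTL and 0.32 in Ti+Se-Met relative to Ti. In the latter comparison 0 genes of the list were past 2-fold, beside 25 of 11137 genes.

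Among 15 genes of the TGF-β axis and other known inducers, 14 passed the filter, and 2 were higher and 1 was lower by 2-fold or more in Ti relative to CTL. The all-gene shares were 3.63% higher and 3.64% lower. Tgfb1 was at 10.98 (CTL), 24.96 (Ti) and 28.87 FPKM (Ti+Se-Met), and Skil, a gene that TGF-β induces, was at 3.73, 8.87 and 8.22 FPKM. Tgfb2 was at 10.75, 4.28 and 3.93 FPKM. Tgfb1 and Tgfb2 thus differed in opposite directions from CTL. Tgfb3, the most abundant TGF-β ligand gene of the list in every library, was at 39.15, 33.69 and 33.17 FPKM. Its difference in Ti relative to CTL was -0.21. Twist1, a transcription factor gene linked to Postn expression, was at 52.14, 35.83 and 41.56 FPKM, and Tgfbr2 was at 82.56, 55.79 and 53.81 FPKM. The median of the list was -0.06 in Ti relative to CTL and -0.03 in Ti+Se-Met relative to Ti.

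In the annotation terms deposited with the table, all 9 genes carried the term extracellular region, which 6.67% of the listed genes carried, and 8 carried collagen-containing extracellular matrix (1.62% of genes). Calcium ion binding was given for Sparc, Sparcl1, Thbs1, Thbs2, Smoc1 and Smoc2. Heparin binding was given for Postn, Thbs1, Thbs2, Smoc1 and Smoc2. Genes of the same term differed in direction, as Postn and Thbs2 do under heparin binding and Sparcl1 and Thbs2 under calcium ion binding. In GENCODE M21, exons of Tnc and of Thbs1 overlap a gene on the opposite strand (8030451A03Rik and Gm29233). The strand handling of the counting was not stated, so reads of these genes could not be told apart from those of Tnc and Thbs1.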

How the data were processed

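Total RNA of MC3T3-E1 cells was sequenced in 3 libraries, 1 per condition. According to the study's methods, reads with adapters or low quality were removed, the others were aligned with HISAT2, and genes were counted with HTSeq. The submitters' processing notes also name StringTie, SAMtools and mm9, and the way FPKM was derived is not given in the sources used here. The deposited values are FPKM per gene, rounded by the authors to 2 decimals, with no coordinates. Since they are not counts, count models were not used, and 1 library per condition leaves no test.

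The log2(FPKM + 1) differences were taken (scipy 1.17.1 and pandas 2.3.3 under Python 3.11.15, with numpy 2.4.6) over genes at 1 FPKM or more in at least 1 library. Depth was fitted so that low values of 453 genes with 1 transcript of 350 to 1000 bases fell on whole fragments (tolerance 0.09), after subtracting 150 bases from GENCODE M21 lengths. At the chosen depth, 61.7% of 107 values in CTL, 53.8% of 80 in Ti and 53.1% of 81 in Ti+Se-Met did, against 18% by chance. Depths from 13650000 to 14500000, from 14550000 to 14950000 and from 9950000 to 10750000 fitted nearly as well. Lengths matched for 95.3% of genes. Fold intervals are exact conditional binomial, and level intervals are Poisson. The differences and the depth estimate were run on simulated fragments drawn with the same lengths and the 150-base subtraction that the estimate uses. This checks the steps only, and not how well the fitted depths match these libraries.

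The 9 genes, the lists and the rule for named genes (2-fold or more against CTL, at most 6 per list, plus the 2 most abundant in CTL) were chosen with earlier results of these data known. Tnn was named outside this rule, for its ratio between Ti+Se-Met and Ti, and so was Tgfb3, as the most abundant TGF-β ligand gene. The motifs were chosen after the values were seen. Columns with no matching library numbered 0. A marker of the preosteoblast list is not reported here and was left out of its sum.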

Additional observations from a re-analysis of the deposited data

How the results depend on the processing

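No paired analysis was possible because there was 1 library per condition, which also kept any library from being left out. The alternatives were pseudocounts of 0.1 and 5, scaling by upper quartile, by median of ratios or to TPM, no filter, a mean of at least 5 FPKM, and thresholds of 1.5-fold and 4-fold. The number of matricellular genes past 2-fold in Ti relative to CTL was 4, and 1 at 4-fold, both on the log2(FPKM + 1) scale. By the plain ratio Tnc (0.201) and Sparcl1 (0.246) were past 4-fold as well as Postn. In Ti+Se-Met relative to CTL it was 2, and became 1 both with a pseudocount of 5 and at 4-fold. It became 3 as TPM, where Tnc was added, and 4 at 1.5-fold. In Ti+Se-Met relative to Ti it was 2, and became 0 both with a pseudocount of 5 and at 4-fold, and 4 at 1.5-fold. The changes with the threshold follow by construction. The share of all genes at 1.5-fold and 4-fold was not counted, so these counts have no background to be read against. The median difference in Ti relative to CTL, -1.21, became -1.11 with a pseudocount of 5, -1.45 as TPM, -1.34 with upper-quartile scaling and -0.49 with no filter, where Smoc1 and Smoc2 enter. In Ti+Se-Met relative to CTL, -0.51 became -0.71 as TPM, -0.58 with upper-quartile scaling and -0.35 with no filter, and in Ti+Se-Met relative to Ti, 0.64 became 0.23 with no filter. The number of all genes past 2-fold was 809, 664 and 25 in the 3 comparisons. It was 1251, 1108 and 90 with a pseudocount of 0.1, 333, 243 and 4 with a pseudocount of 5, 1043 as TPM in Ti+Se-Met relative to CTL, and 12 in Ti+Se-Met relative to Ti with a mean of at least 5 FPKM. Of 135 values of single genes under the pseudocounts and scalings, 4 changed sign, 3 of them in Thbs2 between Ti+Se-Met and Ti and 1 in Smoc2 between Ti and CTL. The depth limits Smoc1 and Smoc2 most.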
